A study of Mus musculus with 15 samples.

Results

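Endothelial cells of the liver are a source of secreted signals, and 9 genes of the Wnt pathway were followed through 5 sorted populations of them. The 9 were Rspo3, Wnt2, Wnt9b, Wnt5a, Dkk2, Dkk3, Sfrp1, Fzd4 and Fzd6, taken by name from the 21173 genes that had a named probe on the array. Each of the 9 had 1 probe, found through its RefSeq accession in the scanner files. RNA of sorted mouse liver endothelial cells was read on 15 one-colour Agilent arrays, 3 for each population. EC-SP and EC-MP cells came from livers of mice 8 weeks old. The labels abbreviate these names, which are read here as the side population, cells that export a DNA-binding dye, and the main population, which retain it. CD157+CD200+, CD157-CD200+ and CD157-CD200- cells were subsets of liver endothelial cells sorted by the surface proteins CD157 and CD200, and the design text calls the livers adult. The labels name no strain, genotype, sex, treatment or pooling for any group. Whether the 3 independent samples of a group were separate animals is not said, and p-values here reflect the scatter among samples, which may be technical.

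Wnt proteins bind Frizzled receptors together with the co-receptors Lrp5 and Lrp6, which lets β-catenin reach the nucleus and act there with Tcf and Lef factors. R-spondins strengthen this signal by removing the ubiquitin ligases Rnf43 and Znrf3, which would otherwise clear Frizzled receptors from the cell surface. In the liver, endothelial cells around the central vein are known for making Rspo3, Wnt2 and Wnt9b, and the neighbouring hepatocytes depend on these signals for glutamine synthesis and drug metabolism. Dkk and Sfrp proteins are secreted modulators: Dkk proteins act on Lrp co-receptors and Sfrp proteins bind Wnts.

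Promoters of 4 of the 9 genes, Wnt2, Wnt9b, Dkk2 and Fzd4, were found in the RefSeq table used here, on build GRCm38.p6. The 250 bases before the start of transcription of the first 3 are given 5′ to 3′ because the comparisons turn on these genes. Capitals mark a match to 1 of 5 motifs searched on both strands. These were TATAAA, the TATA box, then GATAA, the core of the GATA factor motif, then CTTTGA, the core bound by Tcf and Lef factors, then TGGGAA, the RBPJ motif, and ACAAT, a Sox motif.
Wnt9b, chr11:103749822-103750071, minus strand: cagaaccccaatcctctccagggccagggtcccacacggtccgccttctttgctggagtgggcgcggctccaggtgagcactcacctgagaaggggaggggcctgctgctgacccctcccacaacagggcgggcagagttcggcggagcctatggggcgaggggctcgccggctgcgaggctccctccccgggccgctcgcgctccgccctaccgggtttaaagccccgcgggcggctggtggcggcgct
Wnt2, chr6:18030446-18030695, minus strand: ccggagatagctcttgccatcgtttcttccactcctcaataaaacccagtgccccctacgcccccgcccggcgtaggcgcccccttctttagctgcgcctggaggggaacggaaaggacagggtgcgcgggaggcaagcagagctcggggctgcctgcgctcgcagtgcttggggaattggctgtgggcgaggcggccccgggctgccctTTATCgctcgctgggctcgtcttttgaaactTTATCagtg
Dkk2, chr3:132085042-132085291, plus strand: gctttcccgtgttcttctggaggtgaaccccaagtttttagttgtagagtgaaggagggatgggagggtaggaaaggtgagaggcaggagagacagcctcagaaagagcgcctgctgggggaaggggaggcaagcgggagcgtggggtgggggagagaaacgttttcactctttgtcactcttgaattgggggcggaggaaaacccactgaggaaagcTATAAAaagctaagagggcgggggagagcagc
The Dkk2 window held TATAAA 32 bases upstream of the start. The Wnt2 window held GATAA on the opposite strand, with the matches 40 and 9 bases upstream. The Wnt9b window held none of the 5. For all 32851 promoter windows of the same length, 12.4% held the TATA box, 22.6% the GATA core, 13.8% the Tcf and Lef core, 21.6% the RBPJ motif and 27.7% the Sox motif, on either strand. A match describes these letters only.

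The share of spots well above background was 57.3% to 69.4% per array, with a 75th percentile of 157 to 297 intensity units. Levels below are log2 signal relative to that percentile of the same array, so 0 is the 75th percentile, and levels of different genes are not compared. Bst1, which encodes CD157, was 4.34 higher on the log2 scale in EC-SP than in EC-MP cells (SE 0.24, limma adjusted p = 2.7e-05) and 5.73 higher in CD157+CD200+ than in CD157-CD200- cells (SE 0.25, adjusted p = 5.5e-07). Cd200 was 3.39 higher in EC-SP than in EC-MP cells (SE 0.26, adjusted p = 9e-05), and at least 320-fold higher in CD157+CD200+ than in CD157-CD200- cells, where it was not well above background. The endothelial genes Pecam1 and Cdh5 were well above background on every array. The arrays of EC-SP and EC-MP were read with another scanner and software version than those of the subsets, so differences were tested within each set of arrays.

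**Figure D1:**
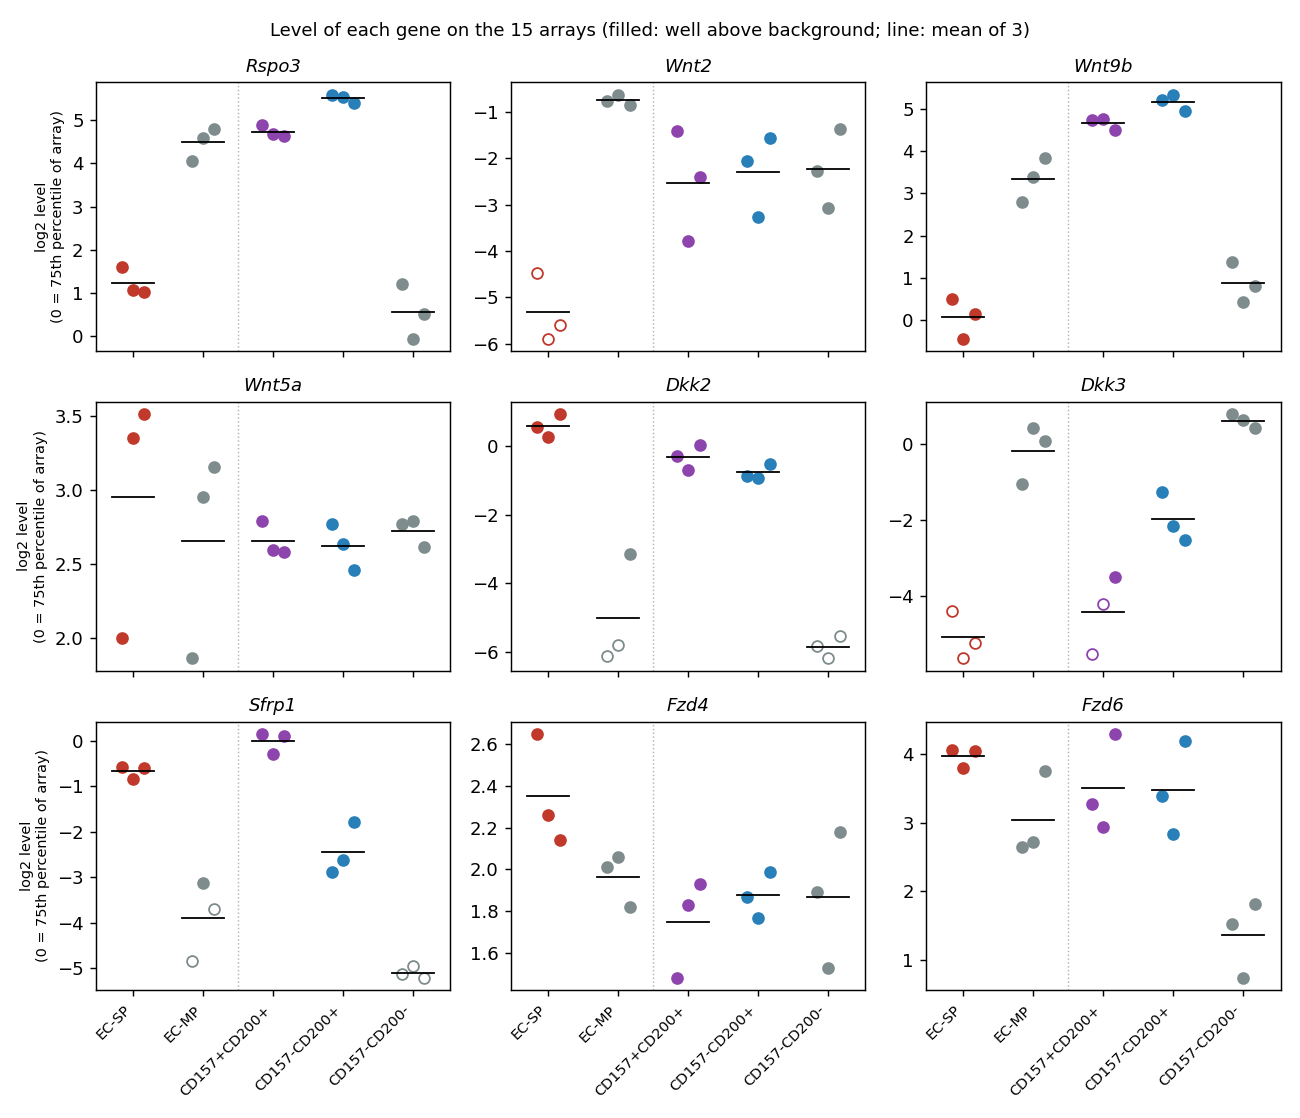
Log2 level of each gene on the 15 arrays, relative to the 75th percentile of the array, with EC-SP and EC-MP left of the dotted line and the 3 subsets right of it. Points are arrays, filled where the probe was well above background and open where it was not, and lines are means of 3 arrays. Rspo3 and Wnt9b were low in EC-SP and in CD157-CD200- cells, while Wnt5a lay between 2.46 and 2.79 on all 9 subset arrays.

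EC-SP cells were set against EC-MP cells in a search for markers of endothelial stem cells. The central vein signals Rspo3, Wnt2 and Wnt9b were all lower in EC-SP cells, as was Dkk3, while Dkk2 and Sfrp1 were higher. Thus 6 of the 9 genes passed an adjusted p of 0.05, 2 of them higher and 4 lower, where 16.5% of all 23973 features tested passed, 9.1% higher and 7.44% lower. Because the 9 genes were chosen with earlier results of these data known, the shares here and below give scale only. The groups did not overlap for 8 of the 9 genes, against 35.0% of all features. Only 5 of the 9 were well above background on all 6 arrays. Wnt2, Dkk2, Dkk3 and Sfrp1 entered the test through the group in which they were high, and a gene that enters in this way has to differ. The median log2 difference of the 9 was 0.30, beside -0.01 over all features.

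Rspo3, the R-spondin of the central vein, read 1.61, 1.08 and 1.02 in EC-SP replicates 1 to 3, against 4.06, 4.59 and 4.80 in EC-MP. All EC-SP arrays lay below all EC-MP arrays. Rspo3 fell by 3.25 on the log2 scale (SE 0.28, adjusted p = 0.00016), a level 9.5-fold lower. Wnt9b, a ligand that acts through β-catenin, read 0.50, -0.44 and 0.15 in EC-SP cells, against 2.79, 3.39 and 3.83 in EC-MP cells. Its groups were also apart, and it fell by 3.26 (SE 0.34, adjusted p = 0.00038). Wnt2, another such ligand, was not well above background on any EC-SP array, with -4.47, -5.89 and -5.59, and read -0.77, -0.63 and -0.86 in EC-MP cells. The level of Wnt2 in EC-SP cells was lower by at least 8.57-fold, a bound set against the dimmest signals called well above background (adjusted p of the fitted difference 9.5e-05). Within the 3 slides, each of which held 1 EC-SP and 1 EC-MP array, Rspo3 differed by -2.46, -3.51 and -3.78, and Wnt9b by -2.29, -3.83 and -3.68.

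Wnt5a, a ligand known mainly for signalling without β-catenin, read 2.00, 3.35 and 3.51 in EC-SP cells, against 1.86, 2.95 and 3.15 in EC-MP cells. The groups overlapped, and the difference of 0.30 had a 95% interval of -0.75 to 1.35 (adjusted p = 0.73). Replicate 1 was the lowest in both groups.

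Dkk2, which binds Lrp6, read 0.55, 0.26 and 0.93 in EC-SP cells, against -6.12, -5.79 and -3.16 in EC-MP cells, where 1 of 3 arrays was well above background. The groups were far apart, with a log2 difference of 5.60 (SE 0.67, adjusted p = 0.00079). Sfrp1, a decoy that binds Wnts, read -0.57, -0.84 and -0.59 in EC-SP cells, against -4.85, -3.12 and -3.71 in EC-MP cells, with 1 of 3 EC-MP arrays well above background. It was 3.23 higher on the log2 scale (SE 0.40, adjusted p = 0.00089). Dkk3, a divergent Dkk protein whose part in Wnt signalling is less settled, went the other way: it read -4.39, -5.64 and -5.23 in EC-SP cells, none well above background, against -1.06, 0.40 and 0.07 in EC-MP cells. In EC-SP cells its level was lower by at least 12.6-fold (adjusted p of the fitted difference 0.00019).

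The receptor Fzd6, known from planar cell polarity, read 4.06, 3.79 and 4.04 in EC-SP cells, against 2.65, 2.72 and 3.75 in EC-MP cells. Its groups were apart by little, since EC-MP replicate 3 lay close to the EC-SP arrays, and the difference of 0.92 had a 95% interval of 0.21 to 1.64 (adjusted p = 0.081). Without EC-MP replicate 3 it was 1.28 (adjusted p = 0.012). It was smaller and did not pass with normexp background correction (0.68, adjusted p = 0.18) or quantile normalization (0.72, 0.19). The same held in the deposited series table (0.76, 0.15). Fzd4, the receptor of Norrin and of Wnts in vessels, read 2.65, 2.26 and 2.14 in EC-SP cells, against 2.01, 2.06 and 1.82 in EC-MP cells, with a difference of 0.38, a 95% interval of -0.13 to 0.90 and an adjusted p of 0.31.

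With normexp background correction, whose offset compresses dim signals, the log2 differences were smaller for Wnt2 (-1.33), Dkk2 (2.46), Dkk3 (-1.61) and Sfrp1 (1.16), and each still passed. The size of these 4 differences thus depends on the background correction, and the bounds given for Wnt2 and Dkk3 hold for the main processing only.

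Among markers of other cells, 6 of 7 cholangiocyte genes passed as higher in EC-SP cells, and the summed linear level of the list was 9.67 to 12.6 times the 75th percentile in EC-SP against 1.94 to 2.79 in EC-MP cells. All 7 were well above background in EC-SP cells. The 15 stellate and fibroblast markers summed to 9.10 to 9.96 in EC-SP cells and 12.0 to 12.3 in EC-MP cells. Of the 11 tested, 0 were higher and 3 lower, which were Lrat, Hgf and Reln. Lrat and Reln were not well above background on any EC-SP array, so they had to differ. Pdgfra, of the same list, was not well above background in either group. The 8 smooth muscle and pericyte markers summed to 11.2 to 16.2 in EC-SP cells and 6.01 to 6.93 in EC-MP cells, where Rgs5 alone passed, 3.75 higher (SE 0.33, adjusted p = 0.00018). Of 7 hepatocyte markers tested, Alb and Ttr rose in EC-SP cells and Fgb and Apoa1 fell. Of 5 Kupffer cell markers tested, only Cd68 passed, and it fell. Of 12 sinusoidal endothelial genes, 12 fell in EC-SP cells, with a median log2 difference of -4.24. Over all features, 16.5% passed in this comparison. The part of these lists in the results for the 9 genes was not tested, and in bulk samples fewer cells of a type cannot be told apart from less RNA per cell.

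The antibody sort compared subsets by CD157 and CD200. In CD157+CD200+ cells, Rspo3 and Wnt9b were both higher than in CD157-CD200- cells, Dkk2, Sfrp1 and Fzd6 were also higher, and Dkk3 was lower. So 6 of the 9 genes passed, 5 higher and 1 lower, where 15.2% of all 23703 features did, 8.09% higher and 7.11% lower. The groups did not overlap for 6 of the 9, against 29.3% of all features. On all 6 arrays of these groups, 6 of the 9 genes were well above background. Dkk2, Dkk3 and Sfrp1 were not, entered the test through groups in which they were high and so had to differ. With only genes well above background on every array of the subsets, 3 of 6 passed, where 2842 of 20448 features did. The median log2 difference of the 9 was 2.14, beside 0.01 over all features. The 3 comparisons among the subsets share arrays and are not independent of each other.

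Rspo3 read 4.89, 4.68 and 4.63 in CD157+CD200+ cells, 5.59, 5.53 and 5.39 in CD157-CD200+ cells, and 1.20, -0.06 and 0.51 in CD157-CD200- cells. Both CD200+ subsets lay far above the CD157-CD200- arrays. Against CD157-CD200- cells, it was 4.18 higher in CD157+CD200+ cells (SE 0.28, adjusted p = 8e-06) and 4.95 higher in CD157-CD200+ cells (SE 0.28, adjusted p = 3.6e-06). Wnt9b followed the same order, with 4.73, 4.75 and 4.50 in CD157+CD200+ cells, 5.21, 5.34 and 4.95 in CD157-CD200+ cells, and 1.38, 0.44 and 0.81 in CD157-CD200- cells. It was 3.78 higher in CD157+CD200+ (SE 0.25, adjusted p = 6.3e-06) and 4.29 higher in CD157-CD200+ than in CD157-CD200- cells (SE 0.25, adjusted p = 3.6e-06). Both genes were slightly lower in CD157+CD200+ than in CD157-CD200+ cells on each of the 3 slides, with differences of -0.77 for Rspo3 (95% interval -1.40 to -0.13, adjusted p = 0.43) and -0.51 for Wnt9b (-1.06 to 0.05, adjusted p = 0.65), and neither passed.

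Wnt2 did not follow them. It read -1.42, -3.78 and -2.40 in CD157+CD200+ cells, -2.06, -3.27 and -1.56 in CD157-CD200+ cells, and -2.27, -3.07 and -1.37 in CD157-CD200- cells, well above background on all 9 arrays. The 3 ranges overlapped, with replicate 2 the lowest in each subset, and CD157+CD200+ minus CD157-CD200- was -0.30 with a 95% interval of -1.77 to 1.18 (adjusted p = 0.87). That interval includes differences of over 2-fold in either direction. Wnt5a was close to level, at 2.79, 2.59 and 2.58 in CD157+CD200+ cells, 2.77, 2.63 and 2.46 in CD157-CD200+ cells, and 2.77, 2.79 and 2.61 in CD157-CD200- cells. Its difference of -0.07 between CD157+CD200+ and CD157-CD200- cells had a 95% interval of -0.44 to 0.30 (adjusted p = 0.87).

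Dkk2 read -0.28, -0.70 and 0.03 in CD157+CD200+ cells and -0.88, -0.92 and -0.51 in CD157-CD200+ cells, and was not well above background in CD157-CD200- cells, at -5.83, -6.19 and -5.55. The CD200+ subsets overlapped each other and lay apart from CD157-CD200- cells. Against CD157-CD200- cells, its level in CD157+CD200+ cells was higher by at least 12.0-fold (adjusted p of the fitted difference 6.7e-07), and in CD157-CD200+ cells by at least 8.74-fold (1.5e-06). The difference between the CD200+ subsets was 0.46 (95% interval -0.10 to 1.01, adjusted p = 0.74).

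Sfrp1 was the 1 gene of the 9 that passed in all 3 pairwise comparisons of the subsets. It read 0.16, -0.29 and 0.12 in CD157+CD200+ cells, -2.89, -2.62 and -1.79 in CD157-CD200+ cells, and -5.14, -4.95 and -5.22 in CD157-CD200- cells, the last not well above background. None of the 3 ranges overlapped. Sfrp1 was 2.43 higher in CD157+CD200+ than in CD157-CD200+ cells (SE 0.28, adjusted p = 0.004), and within the slides by 3.05, 2.33 and 1.91. With normexp correction this difference was smaller, at 1.21 (adjusted p = 0.0011), and still passed. Against CD157-CD200- cells, Sfrp1 in CD157+CD200+ cells was higher by at least 14.9-fold (adjusted p of the fitted difference 2.2e-06), and in CD157-CD200+ cells by at least 2.76-fold (0.00018). The second of these was lost with normexp correction, at a log2 difference of 0.43 (adjusted p = 0.077).

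Dkk3 ran opposite to Sfrp1. It read -5.53, -4.20 and -3.50 in CD157+CD200+ cells, with 1 of 3 arrays well above background, -1.27, -2.17 and -2.52 in CD157-CD200+ cells, and 0.77, 0.61 and 0.40 in CD157-CD200- cells. The ranges did not overlap. Dkk3 fell by 5.01 on the log2 scale in CD157+CD200+ cells (SE 0.48, adjusted p = 8.2e-05) and by 2.58 in CD157-CD200+ cells (SE 0.48, adjusted p = 0.0064), each against CD157-CD200- cells. Between the CD200+ subsets the difference was -2.42 (SE 0.48, adjusted p = 0.057). It passed with quantile normalization (0.046), with all 15 arrays in the fit (0.037) and without CD157+CD200+ replicate 3 (-2.88, adjusted p = 0.033). With normexp correction it was only -0.51 (adjusted p = 0.23) and did not pass. Nor did it pass without the filter on dim probes (0.15) or with the replicate block (0.085).

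Fzd6 read 3.27, 2.93 and 4.29 in CD157+CD200+ cells, 3.39, 2.84 and 4.18 in CD157-CD200+ cells, and 1.52, 0.74 and 1.82 in CD157-CD200- cells. The CD200+ subsets had like levels on each slide and both lay above CD157-CD200- cells, by 2.14 (SE 0.45, adjusted p = 0.0096) for CD157+CD200+ and 2.11 (SE 0.45, adjusted p = 0.013) for CD157-CD200+ cells. Fzd4 read 1.48, 1.83 and 1.93 in CD157+CD200+ cells, 1.87, 1.77 and 1.99 in CD157-CD200+ cells, and 1.89, 1.53 and 2.18 in CD157-CD200- cells. Its ranges overlapped, and CD157+CD200+ minus CD157-CD200- was -0.12 (95% interval -0.60 to 0.35, adjusted p = 0.82).

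**Figure D2:**
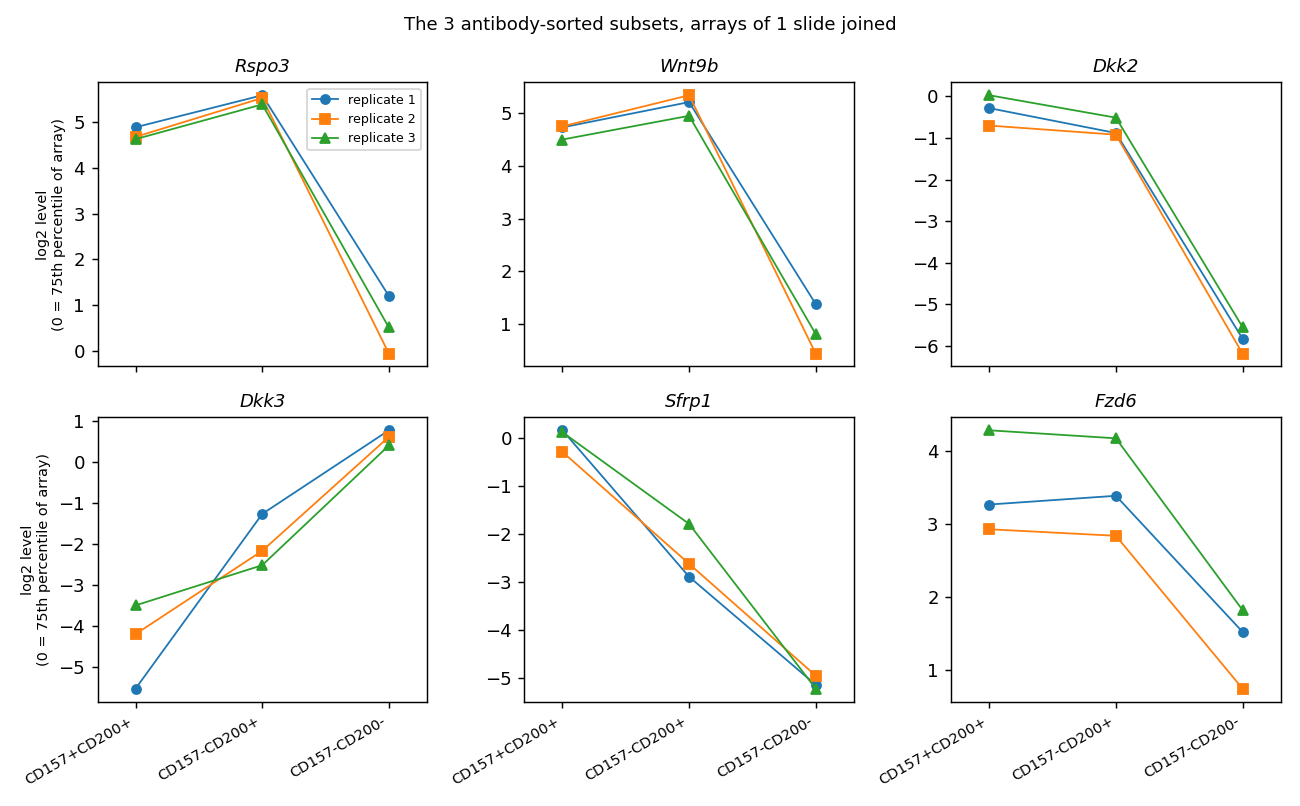
Log2 level, relative to the 75th percentile of the array, of 6 genes in CD157+CD200+, CD157-CD200+ and CD157-CD200- cells, with the 3 arrays of 1 slide joined by a line. On each slide Sfrp1 was highest and Dkk3 lowest in CD157+CD200+ cells, and Rspo3, Wnt9b, Dkk2 and Fzd6 were lowest in CD157-CD200- cells.

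Counted over the 9 genes, 1 passed between CD157+CD200+ and CD157-CD200+ cells, which was Sfrp1 and higher, where 1.05% of all features passed, 0.802% higher and 0.245% lower. The groups did not overlap for 4 of the 9 there, against 14.6% of all features. Between CD157-CD200+ and CD157-CD200- cells 6 passed, 5 higher and 1 lower, where 11.8% of all features passed, 6.31% higher and 5.54% lower, and the groups did not overlap for 6 of the 9, against 25.4%. Dkk2 and Sfrp1 entered this test too through groups in which they were high. The stricter filter left 3 that passed, where 2197 of 20448 features did. In limma's F test for any difference among the 3 subsets, Rspo3, Wnt9b, Dkk2, Dkk3, Sfrp1 and Fzd6 passed, where 13.9% of features did. Fzd6 had an adjusted p of 0.013 there, and of 0.06 without CD157-CD200- replicate 2.

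With normexp correction the log2 differences between CD157+CD200+ and CD157-CD200- cells were smaller for Dkk2 (1.87), Sfrp1 (1.65) and Dkk3 (-2.12), and each still passed. Between CD157-CD200+ and CD157-CD200- cells Dkk2 was at 1.52 and Dkk3 at -1.62 with that correction, and both passed.

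Markers of other cells also moved in the antibody sort. For scale, 15.2% of all features passed between CD157+CD200+ and CD157-CD200- cells. The summed level of the 15 stellate and fibroblast markers was 21.2 to 24.9 in CD157+CD200+ cells, 21.2 to 27.8 in CD157-CD200+ cells and 12.0 to 16.4 in CD157-CD200- cells. Between CD157+CD200+ and CD157-CD200- cells, 2 of the 11 tested rose, Col3a1 and Pdgfrb, the latter by 4.79 (SE 0.75, adjusted p = 0.0019, with 2 of 3 CD157-CD200- arrays well above background). The 3 that fell were Hgf, Lrat and Dcn. Hgf was not well above background on any CD157+CD200+ array, so its fall rests on background signals there. Pdgfra and Hand2 were not well above background in any subset. The 8 smooth muscle and pericyte markers summed to 20.4 to 27.4 in CD157+CD200+, 21.8 to 36.8 in CD157-CD200+ and 7.17 to 11.0 in CD157-CD200- cells, and in CD157+CD200+ against CD157-CD200- cells 1 of the 7 tested rose, 1 fell and 5 did not pass. Rgs5 rose by 3.84 (SE 0.27, adjusted p = 9.2e-06) and Abcc9 was the gene that fell, while 0 of 6 arrays of the CD200+ subsets had the pericyte gene Kcnj8 well above background. Of 8 hepatocyte markers tested, 7 fell in CD157+CD200+ against CD157-CD200- cells, and 4 of 7 Kupffer cell markers fell. None of the 7 cholangiocyte genes passed there. The 12 sinusoidal endothelial genes fell as a list, 12 of 12, with a median log2 difference of -4.76. Their part in the results for the 9 genes was not tested.

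Whether the EC-SP minus EC-MP difference differed from the CD157+CD200+ minus CD157-CD200- difference was tested on all 15 arrays. Each value depends on the EC-MP and CD157-CD200- cells too, and EC-SP levels were not tested against CD157+CD200+ levels. Rspo3, Wnt9b and Wnt2 passed, 3 of the 9 genes, where 5.05% of 25065 features did. The first difference minus the second was -7.43 for Rspo3 (SE 0.41, adjusted p = 2.4e-07) and -7.05 for Wnt9b (SE 0.44, adjusted p = 3.6e-07), both well above background on every array. For Wnt2 the fitted value was -4.26 (SE 0.84, adjusted p = 0.0087), but it rests on background signals in EC-SP cells and gives no size. With normexp correction it was -1.27 (adjusted p = 0.035). Rspo3 and Wnt9b ran in opposite directions in the 2 sorts, on 3 of 3 slides in each. Wnt2 was lower in EC-SP than in EC-MP cells on 3 of 3 slides and higher in CD157+CD200+ than in CD157-CD200- cells on 1 of 3.

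Dkk2, Dkk3 and Sfrp1 were each at background in most or all arrays of a group in both sorts, so their differences of differences give no size. The fitted values were 0.06 for Dkk2 (adjusted p = 1.0) and 0.11 for Dkk3 (adjusted p = 0.99), or 0.59 and 0.51 with normexp correction (0.18 and 0.41), none of which passed. They do not show that the genes moved alike. Sfrp1 was at -1.88 (adjusted p = 0.055) and at -0.48 with normexp correction (0.14). It passed in the series table (-2.03, adjusted p = 0.043), with the replicate number as a block (0.049), without EC-MP replicate 1 (-2.35, adjusted p = 0.0051) and without CD157-CD200+ replicate 3 (0.042). Fzd6 was at -1.21 (95% interval -2.50 to 0.07, adjusted p = 0.34) and passed with the block (0.033). Wnt5a, at 0.37 (adjusted p = 0.88), and Fzd4, at 0.51 (adjusted p = 0.47), did not pass.

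**Figure D3:**
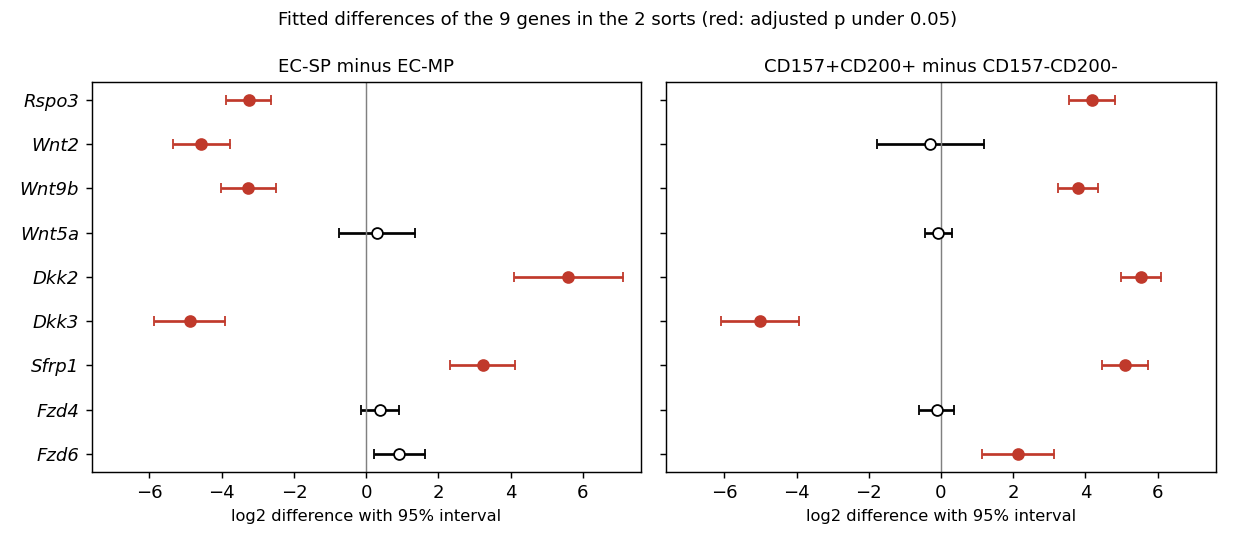
Fitted log2 difference of each gene with its 95% interval, EC-SP minus EC-MP on the left and CD157+CD200+ minus CD157-CD200- on the right, red where the adjusted p is under 0.05. Rspo3 lies at -3.25 on the left and 4.18 on the right, and Wnt9b at -3.26 and 3.78, while Dkk2 is above 0 and Dkk3 below 0 in both.

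Set in order over the 5 groups, with no test across the 2 sets of arrays, Rspo3 averaged 5.50 ± 0.10 in CD157-CD200+, 4.74 ± 0.14 in CD157+CD200+, 4.49 ± 0.38 in EC-MP, 1.24 ± 0.32 in EC-SP and 0.55 ± 0.63 in CD157-CD200- cells (SD, n = 3 each). The ranges of CD157+CD200+ and EC-MP overlapped, as did those of EC-SP and CD157-CD200-. Wnt9b averaged 5.17 ± 0.20, 4.66 ± 0.14 and 3.33 ± 0.52 in CD157-CD200+, CD157+CD200+ and EC-MP cells, 0.88 ± 0.48 in CD157-CD200- cells and 0.07 ± 0.48 in EC-SP cells, and only the last pair overlapped. Wnt2 was highest in EC-MP cells, at -0.76 ± 0.12, and lowest in EC-SP cells, with the subsets between at means of -2.53 to -2.24.

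Dkk2 was highest in EC-SP cells, at 0.58 ± 0.33, and Sfrp1 in CD157+CD200+ cells, at 0.00 ± 0.25. Dkk3 was highest in CD157-CD200- cells, at 0.60 ± 0.19, where its range overlapped that of EC-MP cells. Group means of Wnt5a spanned 2.62 to 2.95 and those of Fzd4 1.75 to 2.35.

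No ligand outside the 9 genes passed in any of the 4 comparisons. Beside the lists here and below, 16.5% of all features passed in EC-SP against EC-MP cells and 15.2% in CD157+CD200+ against CD157-CD200- cells. Of 24 Wnt, R-spondin and Norrin genes, 15 were tested in EC-SP against EC-MP cells, and Rspo3, Wnt2 and Wnt9b, all lower, were the only ones that passed (median of the list -0.09, beside -0.01 over all features). In the antibody sort, CD157+CD200+ against CD157-CD200- cells, 14 were tested, and Rspo3 and Wnt9b, both higher, were the only ones (median 0.05, beside 0.01). Neither of the secretion genes Wls and Porcn passed in any of the 4 comparisons.

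Of 22 receptor genes, 18 were tested in EC-SP against EC-MP cells, where 2 rose and 0 fell, while 16.5% of all features passed. Fzd5, a receptor, rose by 1.48 (SE 0.29, adjusted p = 0.0087), and Fzd9 was at least 2.85-fold higher (adjusted p of the fitted difference 0.0052). Fzd9 was not well above background in EC-MP cells, nor in CD157-CD200- cells below, so it had to differ in both comparisons. For CD157+CD200+ against CD157-CD200- cells, 17 were tested, 6 rose and 1 fell, with a list median of 0.10, while 15.2% of all features passed. Reck, which helps vascular Wnt7 signalling, rose by 1.90 (SE 0.22, adjusted p = 0.00026), Fzd9 was at least 2.00-fold higher (0.001, but 0.086 with normexp correction), and the co-receptor Lrp6 fell by 1.32 (SE 0.23, adjusted p = 0.003).

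Of 20 inhibitors, 11 were tested in EC-SP against EC-MP cells, and 4 rose and 2 fell, with Dkk2 and Sfrp1 among the first and Dkk3 among the second. Tpbg, a membrane protein that damps signalling at Lrp6, rose by 2.11 (SE 0.25, adjusted p = 0.00072). Frzb, an Sfrp protein, fell by 1.97 (SE 0.43, adjusted p = 0.015), with 1 of 3 EC-SP arrays well above background, and Znrf3 rose by 1.37 (SE 0.36, adjusted p = 0.031). Both are marginal: Frzb had an adjusted p of 0.057 without the filter on dim probes and of 0.053 to 0.065 without EC-SP replicate 1, EC-SP replicate 2 or EC-MP replicate 2, and Znrf3 had one of 0.056 to 0.12 in 9 alternatives, 5 of them with 1 array left out (EC-SP replicate 1, 2 or 3, or EC-MP replicate 1 or 3). With CD157+CD200+ set against CD157-CD200- cells, 13 were tested, 6 rose and 1 fell, with a list median of 1.43. There Tpbg rose, with 1 of 3 CD157-CD200- arrays well above background, so that its fitted difference of 5.30 (SE 0.52, adjusted p = 8.7e-05) rests mostly on background signals, and Frzb was at least 7.34-fold higher (0.00013). Frzb was not well above background in CD157-CD200- cells, so it had to differ there.

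Inside the cell, 19 of 19 transduction genes were tested in both comparisons. In EC-SP against EC-MP cells 1 rose and 1 fell, with a median of 0.26, while 16.5% of all features passed. Lef1, which binds DNA with β-catenin, was higher by at least 14.7-fold (3.2e-05), and Nkd1, an inhibitor that Wnt signalling itself induces, fell by 2.49 (SE 0.51, adjusted p = 0.011), with 2 of 3 EC-SP arrays well above background. Lef1 was not well above background in EC-MP cells, nor in CD157-CD200- cells below, so it had to differ in both comparisons. In CD157+CD200+ against CD157-CD200- cells 2 rose and 2 fell, with a median of 0.06, while 15.2% of all features passed. Lef1 was higher by at least 7.61-fold (9.1e-07), Axin2, on 2 of 3 CD157-CD200- arrays well above background, rose by 1.90 (SE 0.44, adjusted p = 0.015), Nkd1 fell by 2.38 (SE 0.17, adjusted p = 9.5e-06) and Tcf7l1 fell by 0.82 (SE 0.22, adjusted p = 0.033). Axin2 had an adjusted p of 0.06 without CD157+CD200+ replicate 1. Tcf7l1 no longer passed without the filter on dim probes (0.078) or without any 1 of 7 arrays (0.052 to 0.11), that is all of the subsets but CD157-CD200+ and CD157-CD200- replicate 3.

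Genes known to respond to Wnt signals in many tissues moved in both directions. Of 12 in the list, 9 were tested in EC-SP against EC-MP cells, and 3 rose and 1 fell, with Tnfrsf19 among the first at 1.26 (SE 0.26, adjusted p = 0.011), or 0.63 (adjusted p = 0.13) with the mean of its probes. Apart from Tnfrsf19 here, and Sp5 and Ccnd1 below, the genes that passed were already counted as inhibitors or transduction genes. Among CD157+CD200+ against CD157-CD200- cells, 11 were tested, 5 rose and 2 fell. Sp5 was at least 2.61-fold higher (0.00033), and Ccnd1, which encodes cyclin D1, fell by 1.88 (SE 0.15, adjusted p = 2.7e-05). Sp5 was not well above background in CD157-CD200- cells, so it had to differ.

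**Figure D4:**
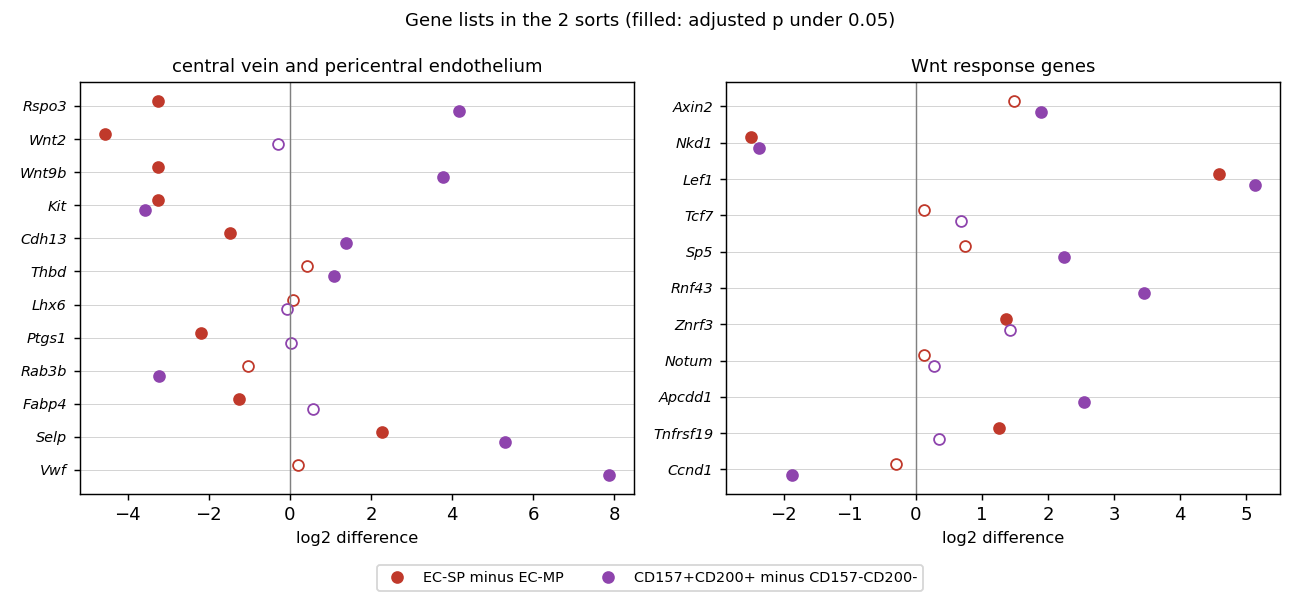
Log2 differences of the tested genes of the central vein list, left, and of the Wnt response list, right, for EC-SP minus EC-MP (red) and CD157+CD200+ minus CD157-CD200- (purple), filled where the adjusted p is under 0.05. Kit lies at -3.25 and -3.58, below 0 in both, whereas Rspo3 and Wnt9b lie on opposite sides of 0.

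A list of 12 central and pericentral endothelial genes, 3 of them among the 9, had 1 higher and 7 lower in EC-SP than in EC-MP cells, with a median of -1.36. In that comparison Kit, a receptor of stem cell factor, fell by 3.25 (SE 0.35, adjusted p = 0.00052), Ptgs1 fell by 2.18 (SE 0.24, adjusted p = 0.00054) and Selp, or P-selectin, rose by 2.27 (SE 0.39, adjusted p = 0.0051). In CD157+CD200+ against CD157-CD200- cells 6 were higher and 2 lower, with a median of 0.83. Vwf, the von Willebrand factor, rose by 7.86 (SE 0.27, adjusted p = 1.9e-07) and Selp by 5.29 (SE 0.26, adjusted p = 1e-06). Kit fell by 3.58 (SE 0.20, adjusted p = 2.2e-06) and Rab3b by 3.22 (SE 0.26, adjusted p = 2.3e-05), so the list did not move with Rspo3 and Wnt9b as a whole.

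Of 10 periportal and arterial genes, 6 rose and 1 fell in EC-SP against EC-MP cells, with a median of 1.67. Hey1 rose by 2.88 (SE 0.25, adjusted p = 0.00017), Sox17 rose by 2.19 (SE 0.22, adjusted p = 3e-04) and Gja4 fell by 1.59 (SE 0.24, adjusted p = 0.0023). Of the same genes, 3 rose and 2 fell in CD157+CD200+ against CD157-CD200- cells, with a median of 0.25. The arterial connexin Gja5 rose by 5.95 (SE 0.18, adjusted p = 1.3e-07), the Notch ligand Jag1 rose by 2.79 (SE 0.19, adjusted p = 7.8e-06), and Msr1 fell by 2.91 (SE 0.17, adjusted p = 3.3e-06). Gja4 fell there by 1.24 (SE 0.27, adjusted p = 0.012).

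Over the 15 arrays, after the mean of each array set was taken off, the gene most like Rspo3 among 13598 was Wnt9b, with Pearson r = 0.994, followed by Il33 at 0.991 and Glp1r at 0.988. After Rspo3, Wnt9b was most like Serpina3n (0.986) and Art4 (0.983). Dkk2 was most like Igfbp3 (0.989), Sema7a (0.983) and Fam181b (0.978), and Sfrp1 most like Myof (0.979), Pkn3 (0.978) and Vwa1 (0.976). Dkk3 was most like Ostm1 (0.968), Rerg (0.965) and Dpp4 (0.96), and Fzd6 most like Synpo (0.974), with Dll1 and Gm128 at 0.961.

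For the other 3 genes the first-ranked r was lower: Wnt2 to Med8 (0.95), Ephb4 (0.938) and Arhgap12 (0.935), Wnt5a to Fbn2 (0.953), Pgap3 (0.926) and Usf3 (0.924), and Fzd4 to Cop1 (0.882), Ythdf2 (0.852) and Strn3 (0.851). Among the 9 themselves, Dkk2 and Sfrp1 had r = 0.90, and Dkk2 and Dkk3 had r = -0.88. The points share slides and groups, so these values describe the 15 arrays only.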

How the data were processed

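Cy3 intensity was read on 15 one-colour Agilent arrays. Per the labels' protocols, RNA came off RNeasy columns, was amplified (NuGEN Ovation Pico kit, WTA V2) and labelled as cDNA. Per the file headers, Feature Extraction 10.10.1.1 (EC-SP, EC-MP) or 11.5.1.1 (subsets) made the deposited processed intensity, which is background-subtracted and on a linear scale. The deposited series table holds this intensity times 1 constant per array (5.46 to 10.1), linear and not centred, with column medians of 256.5, 299.6 and 286.1 (EC-SP replicates 1 to 3), 299.5, 331.2 and 335.4 (EC-MP), 255.8, 278.4 and 252.3 (CD157+CD200+), 265.0, 293.0 and 262.8 (CD157-CD200+) and 218.3, 296.6 and 238.5 (CD157-CD200-). What set the constant is not stated in any header or label.

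Control spots and 110 to 213 outlier spots per array, of 59305, were left out. No spot was saturated. Values are log2 processed signal minus the log2 of the array's 75th percentile. Of 55681 probes, 28059 carried a symbol, by RefSeq accession or from 4 revisions of the array's annotation. Probes were tested if all 3 arrays of some group had them well above background, and the brightest stood for its gene. Fits used limma 3.58.1 in R 4.3.3 (lmFit, eBayes), on 6 arrays for EC-SP and EC-MP, on 9 for the subsets and on 15 for the difference between sorts, two-sided, with Benjamini-Hochberg adjustment over all features and a threshold of 0.05. Group was the only term, so SEs, intervals and p-values leave out the replicate number, which entered only as the block alternative. An adjusted p beside a bound ("at least N-fold") belongs to the fitted difference. A bound compares group means under the main processing and makes no allowance for the scatter among samples. For Wnt2, Dkk2, Dkk3 and Sfrp1 the differences with normexp correction were smaller than the bounds. Files were read with Python 3.11.15 (pandas 2.3.3, numpy 2.4.6), and the fit was tested on simulated data.

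The 9 genes, the lists and the tests were chosen with earlier results of these data known. All 9 genes are named. From each Wnt, central vein and periportal list, up to 2 called genes per direction with the lowest adjusted p are named in the 2 main comparisons, and for likeness the 3 genes with the highest r. Pdgfrb, Rgs5, Pdgfra and Hand2 are named as marker genes, chosen after their values were seen. All stellate and fibroblast genes that passed in the 2 main comparisons are named. Leukocyte markers (8 genes, 5 tested), mesothelial markers (5 genes, 1 tested) and pericentral hepatocyte markers (10 genes, 5 tested) were also summarised. In EC-SP against EC-MP cells 0, 1 and 2 rose and none fell, and in CD157+CD200+ against CD157-CD200- cells 0, 0 and 1 rose and none fell. The mesothelial gene that rose was Krt19, which is also on the cholangiocyte list. The pericentral hepatocyte genes that rose were Glul and Cyp2e1 in EC-SP cells and Axin2 in CD157+CD200+ cells. That list summed to 25.1 to 32.5 in EC-SP and 10.8 to 14.8 in EC-MP cells. Its sums were 19.0 to 22.3 in CD157+CD200+, 18.7 to 21.8 in CD157-CD200+ and 20.4 to 25.2 in CD157-CD200- cells. Leukocyte markers summed to 318 to 434 in EC-SP and 314 to 425 in EC-MP cells. In the subsets they summed to 112 to 173 (CD157+CD200+), 103 to 174 (CD157-CD200+) and 117 to 175 (CD157-CD200-).

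The labels number the replicates, and each slide holds all groups of 1 number within an array set and was scanned together. After group means were removed, arrays of the same number correlated at r = 0.32 to 0.38 (3 pairs) and 0.36 to 0.73 (9 pairs), those of different numbers at -0.23 to -0.08 (6 pairs) and -0.57 to 0.05 (18 pairs), so arrays of 1 number varied together. Number and slide coincide, so a pairing of samples cannot be told apart from an effect of the slide. Alternatives were normexp background correction (offset 50, on median spot signals) with quantile normalization, quantile normalization, the series table, no filter on dim probes, a stricter filter, the mean of all probes of a gene, all 15 arrays in 1 fit, the replicate block, and leaving out each array.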

Additional observations from a re-analysis of the deposited data

Results flagged for a closer look

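Rspo3, Wnt9b and Wnt2 differed between the 2 sorts in a test of the difference itself. The EC-SP minus EC-MP difference minus the CD157+CD200+ minus CD157-CD200- difference was -7.43 for Rspo3 and -7.05 for Wnt9b on the log2 scale. For Wnt2 the fitted value was -4.26, which gives no size because Wnt2 was not well above background on any EC-SP array, and it was -1.27 (adjusted p = 0.035) with normexp correction. Scanner and software differ between the 2 sets of arrays, and each difference was taken within 1 set.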

How the results depend on the processing

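The 9 genes kept their side of the threshold, and their direction where a value has one, in 871 of 916 recomputed values. Of the rest, 34 changed sign, none of which passed before or after, 9 newly passed and 2 no longer did. Among the 871, 149 were adjusted p-values of the F test, which have no direction. The other named genes kept both direction and side in 485 of 509, and 24 no longer passed, with no sign changed. Part of the agreement of the 9 genes was fixed in advance. With 1 probe per gene, the filters, the mean of probes, the 15-array fit and the replicate block could not change a log2 difference. Only the p-value could change there. Genes that left the test under the stricter filter were not counted among the recomputed values. Restricting the test to probes well above background on every array left 2 of the 9 genes past the threshold for EC-SP against EC-MP, 3 for CD157+CD200+ against CD157-CD200-, 0 for CD157+CD200+ against CD157-CD200+ and 3 for CD157-CD200+ against CD157-CD200-, because genes dim on some array left the test. Under that filter 3497 of 21310 features passed for EC-SP against EC-MP. For the subset comparisons, in the same order, 2842, 161 and 2197 of 20448 features did. In CD157+CD200+ against CD157-CD200+ cells, 2 genes passed with quantile normalization, where 270 of 23703 features did. With all 15 arrays in the fit 2 genes passed there too, where 242 of 25065 features did. With the replicate block, which is also the slide block, 6938 of 23703 features passed for CD157+CD200+ against CD157-CD200-. For CD157+CD200+ against CD157-CD200+ 727 passed, and for CD157-CD200+ against CD157-CD200- 5282. For the difference between sorts 3192 of 25065 features passed with the block, and 5 of the 9 genes. The block changed no other call of the 9 genes. Without a filter on dim probes 2279 features passed for EC-SP against EC-MP. With single arrays left out, 1 to 2 genes and 101 to 253 features passed for CD157+CD200+ against CD157-CD200+, with 101 and 112 without CD157+CD200+ replicates 1 and 2, and 119 and 126 without CD157-CD200+ replicates 1 and 2. The authors' series table moved the median log2 difference of all features for EC-SP against EC-MP to -0.17, and 39.8% of the calls were higher there, against 55.0% in the main setting, while the 6 genes that passed kept their directions.

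Sign changes arose among differences near 0. For CD157+CD200+ against CD157-CD200+, Wnt5a was -0.02 with normexp, -0.01 with quantile normalization and 0.00 in the series table, and Fzd6 was 0.00 in both of the last. For the difference between sorts, Dkk2 was -0.09 in the series table, and Dkk3 was -0.16 with quantile normalization and -0.04 in the series table. With single arrays left out, ranges that crossed 0 were -0.10 to 0.78 for Wnt5a in EC-SP against EC-MP, -0.85 to 0.33 for Wnt2 and -0.29 to 0.03 for Fzd4 in CD157+CD200+ against CD157-CD200-, -0.79 to 0.38 for Wnt2, -0.05 to 0.10 for Wnt5a, -0.22 to 0.00 for Fzd4 and -0.37 to 0.38 for Fzd6 in CD157+CD200+ against CD157-CD200+, -0.48 to 0.43 for Wnt2 and -0.16 to 0.16 for Fzd4 in CD157-CD200+ against CD157-CD200-, and -0.02 to 0.85 for Wnt5a, -0.49 to 0.99 for Dkk2 and -0.45 to 0.57 for Dkk3 in the difference between sorts. Signal over background limits the sizes for Wnt2, Dkk2, Dkk3 and Sfrp1. The cause of the other changes was not tested.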
